A study of Homo sapiens with 33 samples.

Results

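A set of 10 genes that encode transcription factors and cofactors of red blood cell development were examined in wild-type K562 cells, out of 58293 entries of the FPKM table. They were found by their gene symbols, with no threshold on their values, and comprised GATA1, ZFPM1, TAL1, LMO2, LDB1, KLF1, NFE2, GFI1B, MYB and BCL11A. K562 is an established human erythroleukemia line that makes embryonic and fetal globins, so the values describe 1 transformed line and not normal erythroid precursors. FPKM (fragments scaled to transcript length and to the mapped fragments of the library) was given for 1 library of RNA-seq of the RIP-seq input, where RIP-seq is the sequencing of RNA pulled down with an antibody, here without antibody. Further libraries, 1 each from untreated wild-type cells, held RNA of the cytoplasm, RNA of the nucleus, and nuclear RNA split into polyA+ and polyA-, counted only on 900 RNA fragments listed from RIP-seq of EZH2, the methyltransferase of Polycomb repressive complex PRC2. Other samples of the study, with knockout or knockdown of the non-coding RNA LEVER among them, were not used here.

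GATA1 binds GATA motifs in the promoters and enhancers of most erythroid genes, and FOG1, the protein of ZFPM1, is its cofactor. TAL1 binds DNA with an E protein and is joined through LMO2 to LDB1, whose self-association can bring distant elements such as the β-globin locus control region close to a promoter. KLF1 acts at CACCC boxes, NFE2 acts with a small Maf protein at TGACTCA-like sites, and GFI1B represses through LSD1 and CoREST. MYB keeps precursors dividing, and BCL11A silences the fetal γ-globin genes HBG1 and HBG2 in adult cells.

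Because there was 1 library, no replicate error and no test of a difference can be given. Each FPKM is followed by its deposited lower and upper confidence bounds, whose level is not given in the sources used here and which cover the estimate in that library only. The library is labelled total RNA, whereas the methods describe RIP lysates made from nuclei of fixed cells, so the values may be weighted to nuclear RNA. A pair of genes was called apart where these bounds did not overlap, which is a description and not a test across cultures. In bulk RNA, fewer cells with a transcript and less of it in each cell cannot be told apart.

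All 10 genes but BCL11A reached an FPKM of 1. This count of 9 stands against 21.8% of all entries and 49.3% of the 19738 protein-coding entries, and 7 of the 10 reached an FPKM of 10 against 19.6% of protein-coding entries. The same 9 genes had a lower bound of at least 1, against 17.1% of all entries. The median FPKM was 15.0 over the 10 genes, 0.907 over protein-coding entries and 7.49 over protein-coding entries that themselves reached 1. On the scale of log2(FPKM + 1) the medians were 4.00 for the 10 genes and 0.93 for protein-coding entries. These genes were picked for their known place in this lineage, so the contrast with the average gene describes them and does not single them out from other erythroid genes. Counts of genes that reached 1 in the related lists below stand against the same 49.3% of protein-coding entries. Those lists were chosen with earlier results of these data known.

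**Figure D1:**
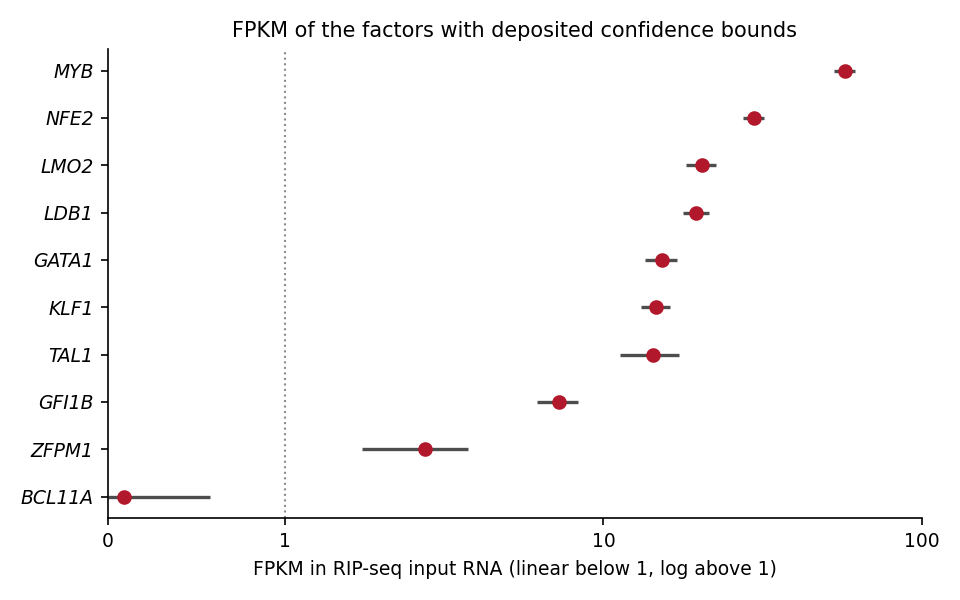
FPKM of each of the 10 genes in the RIP-seq input library (points) with the deposited confidence bounds (lines), on an axis that is linear below 1 and logarithmic above it; the dotted line marks an FPKM of 1. MYB stands highest at 57.4, GATA1, KLF1 and TAL1 have overlapping bounds near 15, and BCL11A alone lies below 1.

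GATA1 (chrX:48786554-48794311, plus strand, GRCh38) had an FPKM of 15.3 (13.5 to 17.0), the 86.8th percentile of protein-coding entries. Its closest relative in level was GATA2, the GATA factor of stem and progenitor cells, at 16.1 (14.5 to 17.7). The ratio of GATA1 to GATA2 was 0.946, and the widest ratios that their bounds allow were 0.760 and 1.17. The bounds of the 2 factors therefore overlapped, and the library held RNA of both at like levels. The other 4 GATA genes lay between 0.0405 for GATA3 and 0.171 for GATA4, and their lower bounds were 0.

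ZFPM1 (chr16:88453317-88537016, plus strand) was the lowest of the 9 expressed genes, at 2.75 (1.75 to 3.75). Its bounds spanned 36.4% of the value on either side, the widest relative error of the 9. GATA1 was 5.56 times as high as its cofactor, and their bounds were apart. ZFPM2 encodes FOG2, the paralog known mainly from heart and gonad, and had an FPKM of 8.26 (6.20 to 10.3). The ratio of ZFPM2 to ZFPM1 was 3.01, with a range of 1.65 to 5.91 allowed by the bounds, so the paralog not known as the erythroid one was the higher of the pair. All 13 genes of the FOG family and of NuRD, the deacetylase and remodelling complex that FOG1 recruits, reached an FPKM of 1, with RBBP4 at 71.8, CHD4 at 67.4 and GATAD2A at 43.9 the highest and ZFPM1 the lowest.

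LMO2 (chr11:33858576-33892289, minus strand), the LIM-only bridge of the TAL1 complex, had an FPKM of 20.4 (18.1 to 22.6). LDB1 (chr10:102107560-102120453, minus strand), which binds LMO2 directly, had an FPKM of 19.6 (17.7 to 21.4). The ratio of these partners was 1.04 and their bounds overlapped. TAL1 (chr1:47216290-47232220, minus strand) was lower, at 14.3 (11.3 to 17.3), 0.700 of LMO2 with bounds apart. Its bounds were 21.0% of the value on either side. The E protein genes were TCF3 at 28.1, TCF12 at 17.9 and TCF4 at 12.5, with wide bounds for TCF4 (4.74 to 20.2). TCF3 was 1.97 times as high as TAL1 with bounds apart. Of the 17 genes of this complex and its relatives 12 reached an FPKM of 1.

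The relatives of the TAL1 complex did not share these levels equally. LYL1, a close relative of TAL1, had an FPKM of 10.4 and bounds that overlapped those of TAL1, whereas TAL2 was listed at 0. LMO4 was at 3.20, so that LMO2 was 6.37 times as high with bounds apart. LMO3 was at 0.425 and LMO1 was listed at 0. LDB2 was at 0.177 (0 to 0.853), and LDB1 was at least 20.8 times as high by the nearest bounds.

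KLF1 (chr19:12884423-12887181, minus strand), the activator of adult β-globin, had an FPKM of 14.7 (13.1 to 16.2). It was the highest of the 17 KLF genes, 8 of which reached 1, a share near the 49.3% of protein-coding entries. KLF3, a repressor that can occupy the same CACCC boxes, followed at 10.9 (9.78 to 12.0), and the ratio of KLF1 to KLF3 was 1.35 with bounds apart. KLF6 came next at 3.48, and KLF2 was lowest at 0.0317. GATA1, KLF1 and TAL1 could not be ordered, since the bounds of each overlapped those of the other 2.

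NFE2 (chr12:54292111-54301121, minus strand), the p45 subunit of NF-E2, was the second highest of the 10 genes at 29.7 (27.4 to 32.0). NFE2L1, a widely expressed relative, was at 31.9 (26.9 to 36.8) with overlapping bounds. NFE2L2 was at 22.1, and NFE2 was 1.34 times as high with bounds apart. BACH1, a heme-regulated repressor that competes for the same sites, was at 21.8. Among the small Maf partners MAFG was at 8.84, MAFK at 2.79 and MAFF at 0.852, so that NFE2 was 3.36 times as high as its most abundant partner gene. BACH2 was the lowest of these 9 genes at 0.512, and 7 of the 9 reached 1.

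GFI1B (chr9:132945533-132991687, plus strand) had an FPKM of 7.25 (6.17 to 8.34). The table held a second, shorter entry of the same gene, chr9:132944000-132953763, at 0.124 (0 to 0.405), and the first entry is the value used here. GFI1, the paralog of early progenitors and neutrophil precursors, was at 0.110 (0 to 0.378), so GFI1B was at least 16.3 times as high by the nearest bounds. Most of its corepressor genes were higher than GFI1B itself, with HDAC2 at 40.2, HDAC1 at 38.9, KDM1A (which encodes LSD1) at 27.6, RCOR1 (CoREST) at 24.9 and RCOR3 at 15.3. RCOR2 was lower than GFI1B, at 0.822 (0.268 to 1.38) with bounds apart. GFI1 was the lowest of the 8 genes of that list, of which 6 reached 1.

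MYB (chr6:135181315-135219173, plus strand) was the highest of the 10 genes at 57.4 (53.2 to 61.7), the 97.8th percentile of protein-coding entries. It was 1.93 times as high as NFE2 and 20.9 times as high as ZFPM1, in both cases with bounds apart. MYBL2, a relative of dividing cells, was at 15.3, MYBL1 was at 0.242, and MYB was 3.75 times as high as MYBL2 with bounds apart. The coactivators of MYB, CREBBP and EP300, were at 14.1 and 10.4. Of these 5 genes 4 reached 1, all but MYBL1.

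BCL11A (chr2:60451167-60553567, minus strand) had an FPKM of 0.0875 (0 to 0.578), the 26.5th percentile of protein-coding entries and the 52.8th of all entries. Its lower bound was 0, so its RNA was not detectable above the error of the estimate. GATA1 was at least 23.3 times as high, and MYB at least 91.9 times as high, by the nearest bounds. BCL11B, the T cell paralog, was at 0.0321 with bounds that overlapped those of BCL11A. The γ-globin genes HBG2 and HBG1, which BCL11A represses in adult cells, were at 218 and 109 in the same library, and the ε-globin gene HBE1 was at 132. The listed loci of HBE1 and HBG2 span 237 and 393 kb and reach far upstream of the globin genes. Whether RNA from that stretch adds to their values was not tested. Of the adult globin genes, the β-globin gene HBB was at 0.127 (0 to 0.747), but the δ-globin gene HBD was at 3.41 (1.49 to 5.33). By RT-qPCR, another assay, the study could detect neither of these adult globins in unmodified K562 cells. HBG1 and HBG2 are near-identical copies, as are HBA1 and HBA2, and removal of reads with low mapping quality can lower or misplace their values.

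Most other genes known to act on the globin switch were expressed. Of 19 such genes, BCL11A included, 16 reached an FPKM of 1, against 49.3% of protein-coding entries. The 3 that did not were LIN28A, BCL11A and BCL11B. The highest after MYB were ATF4 at 55.2 and IGF2BP3 at 43.8. LIN28B, a fetal RNA-binding protein that holds BCL11A protein down, was at 18.7, whereas LIN28A was at 0.341. ZBTB7A, which encodes LRF, the other main γ-globin repressor of adult cells, was at 2.89 (2.49 to 3.29), and SOX6, a partner of BCL11A, was at 6.97. The values for LIN28B, LIN28A, ZBTB7A and SOX6 were singled out after they were seen, for their known relation to BCL11A.

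Genes that these factors are known to activate were expressed to unequal degrees. Of 20 globin, membrane and heme genes 15 reached an FPKM of 1. HBG2 at 218, TFRC, the transferrin receptor, at 171 and HBE1 at 132 were highest. The 5 genes below 1 were EPB42 at 0.484, HBQ1 at 0.450, SLC4A1, the band 3 anion exchanger, at 0.193, HBB at 0.127 and HBM, which was listed at 0. By the markers used to check the cell line, HBE1, HBG1, HBG2, HBZ, HBA1, HBA2, TFRC, GATA1 and EPOR each reached 1, and EPOR, the erythropoietin receptor, was the lowest of them at 1.28. Of 10 markers of other blood cells only PTPRC at 14.5 and LYZ at 5.76 reached 1, and CD14 was listed at 0. Whether RNA of other cells had a part in any value was not tested.

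Factors that define other blood lineages were mostly low beside the 10 erythroid genes. Of 16 such genes 5 reached an FPKM of 1, and their median FPKM was 0.0822 against 15.0. IKZF1 at 13.3, RUNX1 at 12.8 and MEIS1 at 3.80 were highest, and CEBPA and CEBPE, the factors of granulocytes, were listed at 0. SPI1 encodes PU.1, the myeloid and B cell factor that opposes GATA1, and was at 1.46 (0.862 to 2.06). GATA1 was 10.5 times as high as SPI1, with a range of 6.55 to 19.8 allowed by the bounds. The SPI1 value was singled out after it was seen.

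**Figure D2:**
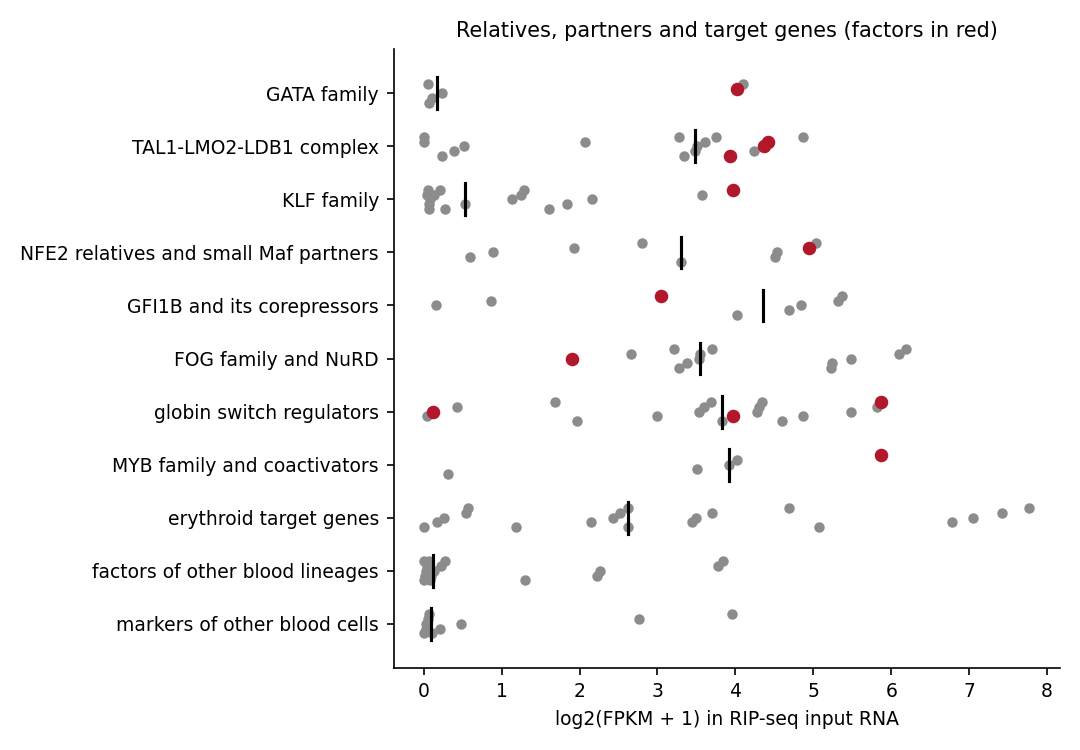
log2(FPKM + 1) of the genes in each list of relatives, partners, target genes and markers; each point is 1 gene, the 10 factors are red, and black bars are list medians. BCL11A lies at the low end of the globin switch regulators, while the GATA and KLF families each hold few genes at the level of GATA1 or KLF1.

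Several loci overlapped other entries, most of them on the opposite strand. The library kit keeps strand, but the strand setting used for the FPKM is not given in the sources used here, so reads in shared bases may have been placed in either gene. Of 11 overlapping entries 5 were listed at 0 and 5 reached an FPKM of 1. The highest was MYB-AS1 at 8.26, opposite MYB and sharing 103 exonic bases with it in GENCODE 44. TSC1 at 3.64 overlapped the shorter GFI1B entry, with 349 shared exonic bases. RP13-786C16.1 at 1.83 lay opposite LMO2 and shared no exonic base with it. The antisense RP1-18D14.7 at 1.48 shared 845 exonic bases with TAL1. All 5 were lower than the main entry of the factor gene they overlapped, the remaining one being RP11-968A15.8 at 1.53 opposite NFE2.

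Neighbouring genes stood both above and below the factor genes. Against the nearest protein-coding gene on either side, which makes 20 pairs, the factor gene was higher with bounds apart in 11, lower in 7 and overlapping in 2. NFE2 lay 5.02 kb from HNRNPA1, which was at 296.1, and 0.081 kb from COPZ1, at 23.8. GATA1 stood between GLOD5 at 0.918 and HDAC6 at 23.5. TAL1 was close to STIL, at 14.5 with overlapping bounds, while PDZK1IP1 on its other side was at 0.108. BCL11A lay below both of its neighbours, FANCL at 13.3 and PAPOLG at 3.85, although FANCL is 2210 kb away.

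None of the 900 EZH2 RIP-seq fragments lay inside any of the 10 loci, with at least 50% of a fragment's length inside the span as the rule. No nuclear to cytoplasmic or polyA- to polyA+ ratio can therefore be given for these genes. Of all 12726 entries with an FPKM of at least 1, called expressed entries from here on, 310 (2.44%) held a fragment, and among the 8566 of them with a span between the shortest and the longest of the 10 loci, 114 (1.33%) did. At such shares an empty list of 10 genes is not a result about these genes. The list holds fragments picked by RIP-seq and is shorter than the set that the study describes, so an empty locus says nothing of its RNA in the nucleus or cytoplasm.

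The length of a locus moved with the share that held a fragment. It was 0.294% of expressed entries of up to 10 kb, 0.994% of those over 10 and up to 50 kb, 2.88% up to 100 kb, 6.24% up to 200 kb and 17.9% above that. Of the 10 loci 8 fell into the 2 shortest of these classes, from KLF1 at 2.76 kb up, with ZFPM1 at 83.7 kb and BCL11A at 102 kb the longest. The median span was 24.8 kb for the 10 loci, 23.6 kb for all expressed entries and 151 kb for expressed entries that held a fragment.

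**Figure D3:**
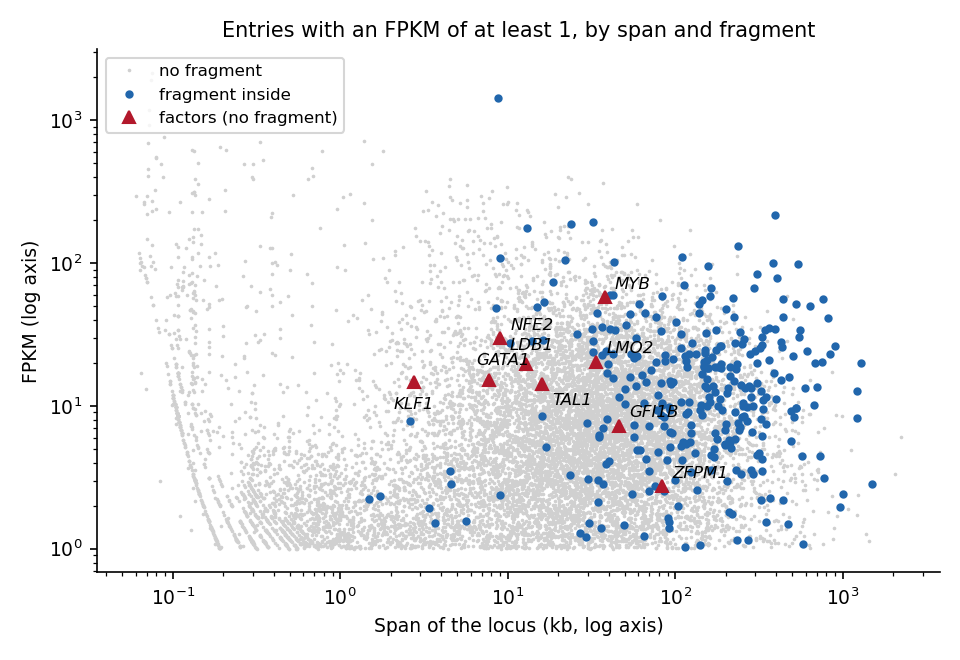
FPKM against span of the locus, both on log axes, for the 12726 entries with an FPKM of at least 1; blue points hold at least 1 EZH2 RIP-seq fragment, grey points none, and red triangles are the 9 expressed factor genes. Blue points gather at long spans, and none of the factor genes holds a fragment.

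The nearest listed fragment was 1.21 Mb from GFI1B, 1.57 Mb from TAL1, 4.93 Mb from MYB and 25.0 Mb from GATA1, the farthest. The median distance was 7.51 Mb for the 10 loci and 3.10 Mb for expressed entries, and 8 of the 10 lay farther than that median. Within 1 Mb of a fragment were 25.3% of expressed entries and 0 of the 10 loci. BCL11A is among the 10 loci but not among the expressed entries. The distances hold for the listed fragments only, which are fewer than the study describes. The contrast was not tested, so it describes these loci on this list and is not a result about these genes. The fragment nearest to GFI1B had 7 nuclear and 0 cytoplasmic reads, 1 polyA+ and 10 polyA- reads. The fragment nearest to MYB, chr6:140153846-140155080, had 54 nuclear, 0 cytoplasmic, 4 polyA+ and 38 polyA- reads. Of the fragments nearest to the other 8 loci, those of NFE2, LMO2, LDB1 and ZFPM1 also had more polyA- than polyA+ reads. Those of GATA1, KLF1 and TAL1 had fewer, by 52 against 53 reads for TAL1 and 800 against 1316 for KLF1. That of BCL11A had 0 reads in each library. Over all listed fragments the median polyA- to polyA+ ratio was 3.20, from reads not scaled between libraries. An excess of polyA- reads is therefore common on the list and does not mark these fragments. They lie 1.21 Mb or more from the loci, so their reads say nothing of the factor genes.

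Fragments did lie inside relatives, partners and target genes of the factors, most of them in long loci. ZFPM2, whose locus spans 1214 kb, held 6, RUNX1 held 5 over 1217 kb, NFIA held 3 and NFE2L2 held 2. The overlapping entries HBE1 and HBG2, whose listed loci reach far upstream of the globin genes, held the same 4, and ANK1, an erythroid membrane gene, held 1. The study maps LEVER to the stretch before the β-globin genes, on the side where these 4 fragments lie, so their overlap with the listed globin loci does not make them globin RNA. Summed over the 6 fragments of ZFPM2 1053 reads were nuclear and 15 cytoplasmic, which gives 70.2 with an exact 95% Clopper-Pearson interval of 42.4 to 126. The polyA- to polyA+ ratio there was 7.53 (6.26 to 9.12), from 971 and 129 reads. In NFE2L2 the nuclear to cytoplasmic ratio was 22.5 (8.49 to 84.4), and the polyA- to polyA+ ratio was 1.35 (1.00 to 1.83).

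These ratios compare reads of 1 library each without scaling, since the library totals are not given in the count tables, and their intervals cover counting error only. Over all 900 fragments taken singly, the median nuclear to cytoplasmic ratio was 12.0 and the median polyA- to polyA+ ratio was 3.20. Ratios of reads summed over the fragments of a gene are another measure and do not compare directly with these medians. Summed over all 900 fragments, 105661 reads were nuclear and 7929 cytoplasmic, and 106051 were polyA- and 57985 polyA+. NFIA, a factor that promotes erythroid over granulocytic fate, had ratios of 40.3 (13.5 to 198) and 7.06 (4.17 to 12.8). RUNX1 had ratios of 31.1 (18.3 to 57.3) and 2.23 (1.88 to 2.64). ANK1 had ratios of 5.00 (1.41 to 26.9) and 1.71 (0.622 to 5.14), and the fragments of HBE1 and HBG2 had ratios of 37.2 (22.0 to 68.5) and 2.98 (2.53 to 3.52). Taken fragment by fragment, the nuclear ratio was above the median of all fragments in 6 of 6 for ZFPM2, 4 of 5 for RUNX1, 1 of 3 for NFIA, 1 of 2 for NFE2L2, 4 of 4 for HBE1 and HBG2 and 0 of 1 for ANK1. The polyA- ratio was above its median in 4, 2, 3, 1, 3 and 0 of them, in the same order. Neither ratio extends to ZFPM1 or NFE2, the erythroid relatives of ZFPM2 and NFE2L2, which hold no fragment.

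GATA1 is known to act at the promoters of its own network, so the promoters of the factor genes were searched for its motif. RefSeq promoter sequences (GRCh38.p14) were at hand for 8 of the 10 genes, all but LMO2 and NFE2, with 14 promoters in all. In the 250 bases before the start, 3 of the 14 held the letters GATAA or GATAG with A or T before them, such as TGATAA, on either strand. The share among all 35116 RefSeq promoters was 22.3%, so the 3 matches are near the background and no result about these genes. The matches are shown because they mark where GATA letters stand in these promoters, in 100 bases each, 5′ to 3′ on the gene's strand, with the match or its reverse complement in capitals.
GFI1B, chr9:132978548-132978647, plus strand: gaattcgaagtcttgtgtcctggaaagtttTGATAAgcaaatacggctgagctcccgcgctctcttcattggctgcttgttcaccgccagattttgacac
KLF1, chr19:12887202-12887301, minus strand: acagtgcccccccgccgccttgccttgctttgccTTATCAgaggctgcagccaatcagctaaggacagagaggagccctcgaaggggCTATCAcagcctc
TAL1, chr1:47232336-47232435, minus strand: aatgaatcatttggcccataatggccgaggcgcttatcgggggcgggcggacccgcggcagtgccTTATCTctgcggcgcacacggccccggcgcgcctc
The match of GFI1B begins 116 bases before a start that lies inside its locus, those of KLF1 begin 66 and 13 bases before the start, and that of TAL1 begins 35 bases before it. CACCC, the core of the KLF1 motif, was present on either strand in 8 of the 14 promoters and 54.7% of all promoters. TGACTCA, an NFE2-like site, was in 0 of the 14 and 4.20% of all. A match is a string of letters and not a bound site, and no match says nothing of the factor.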

How the data were processed

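RNA-seq of the RIP-seq input and of cytoplasmic, nuclear, nuclear polyA+ and nuclear polyA- RNA of K562 cells was analysed, with 1 library each. Per the study's methods, adapters were trimmed with TrimGalore and reads were mapped with STAR to GRCh38 with GENCODE annotation. PCR duplicates were removed with SAMtools rmdup, as were alignments with mapping quality under 20. For the input, the authors gave FPKM of each gene and its bounds, both from cuffdiff. The authors deposited raw read counts of featureCounts on the 900 listed fragments. Tool versions are not given in the sources used here.

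The 10 genes were matched by symbol, with 11 entries found since GFI1B has 2. The members and the gene lists were chosen with earlier results of these data known. Locus starts count from 0 in the FPKM table and were moved to 1. Gene type, strand and exons were taken from GENCODE 44 on the same build, in which 57466 of the 58293 entries were found. Fragments counted as inside a locus from 50% of their length. Genes were named by a fixed rule: all members, of each list the 3 highest, the lowest and up to 3 listed at 0, of overlapping entries the 3 highest, the nearest protein-coding genes, and the hosts of fragments. Some genes that the rule or the marker lists hold are not reported here. Further genes named were chosen after their values were seen. A pseudocount of 1 was used for log2 values. Read ratios were divided by the cytoplasmic or polyA+ reads, and a count under 3 there was set to 3. Their exact Clopper-Pearson intervals used the counts as given. Between 7929 and 106051 reads per library fell on the fragments; these sums are not library totals, and the depth behind the FPKM is unknown. The procedures were tested on simulated data. Alternatives changed the FPKM threshold, the pseudocount, the reference entries and the overlap rule. Promoter windows were RefSeq sequences of GRCh38.p14 and equal to the hg38 genome. Python 3.11.15, numpy 2.4.6, pandas 2.3.3, scipy 1.17.1 and matplotlib 3.10.9 were used.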

Additional observations from a re-analysis of the deposited data

How the results depend on the processing

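The count of 9 genes at an FPKM of 1 was 9 at a threshold of 0.1, 9 with the threshold of 1 on the lower bound, and 7 at a threshold of 10, while 45.8%, 17.1% and 7.37% of all entries passed these settings. The median log2 value of the 10 genes was 3.91 with a pseudocount of 0.1 and 4.02 over entries at 0.1 or more, against 4.00. The percentiles of the 10 genes ranged from 52.8 to 99.0 among all entries. Each fell under both other sets of reference entries, to between 18.8 and 98.3 among entries above 0 and between 26.5 and 97.8 among protein-coding entries. The fall among entries above 0 was fixed in advance, since the entries left out lie below each of the 10 genes. BCL11A moved most, from 52.8 to 18.8 and 26.5. No fragment came inside a locus when 1 shared base sufficed or when loci were widened by 10 or 100 kb. Under these settings 2.51%, 3.44% and 6.75% of expressed entries held a fragment. With the nearest fragment 1.21 Mb from any of the 10 loci, none of these settings could have changed the count, so they are no check of it. The scaled nuclear to cytoplasmic and polyA- to polyA+ ratios of the factor genes were not run, since there was no fragment to scale. No paired analysis was possible because the samples analysed have 1 library per group and no result comes from a test.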
